A study of Rattus norvegicus with 6 samples.

Results

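The gut hormone genes Cck, Gip, Gcg, Sct, Ghrl, Nts, Sst and Pyy, the granin gene Chga, and Tph1, whose enzyme starts serotonin synthesis, were compared between jejunum arrays of stressed and control rats. Their probes were found through the RefSeq accession that the array files give for each spot. Of the 10 genes, 9 had a probe, with 14 of the 41012 probes on the array between them. No probe carried an accession of Sct, the gene of secretin, which was not analysed here. Gip, Gcg, Nts, Chga and Tph1 had 2 probes each, and the probes of Cck, Ghrl and Sst were each spotted 10 times. All 14 probes were well above the local background on all 6 arrays, so the filter on dim probes left out none of them. Among the 9 genes, Cck and Ghrl had the largest called differences in the main fit, 5.91-fold and 2.99-fold. Both had the lower signal on the arrays labelled S3d by their scanner files, which is opposite to the deposited table. The place of Ghrl depended on the scaling. With quantile normalization the dimmer Nts probe was at a log2 fold change of -1.49 and Ghrl at -1.30. In the deposited table they were at 1.49 and 1.30. Median centring kept Ghrl ahead, at -1.76 against -1.66.

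Male Sprague-Dawley rats, 6 weeks old and weighing 200 ± 20 g, gave the tissue. The control group was housed at 25°C. The S3d group underwent heat of 35°C together with a vibration of 0.1 g, in sessions of 2 h that were repeated on 3 days. Each group had 3 arrays, each of RNA that was pooled from 3 rats, and per the labels a group held 10 rats. All rats were killed under ether anaesthesia. Whole jejunal sections were used, so fewer cells of a type and less RNA per cell cannot be told apart.

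Enteroendocrine cells are scattered single cells of the gut epithelium that sense the content of the gut lumen and release peptide hormones and serotonin from dense-core granules. Chromogranin A is a protein of those granules and their classical marker. Cholecystokinin, GIP and secretin are known from the upper small intestine, whereas neurotensin, peptide YY and the glucagon-derived peptide GLP-1 are known mostly from the ileum and colon. Somatostatin is made by D cells and also by enteric neurons, and Tph1 also by mast cells.

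Before any hormone is described, 3 features of the arrays bear on every value. The columns of the deposited log2 table followed the scanner files of the other group, with rank correlations over probes of 0.999997 to 1.00 between a column and the file of the same replicate number in the other group, against 0.922 to 0.929 for the file of its own label. No array was reassigned. Differences are given as the arrays labelled S3d minus those labelled control by the scanner files, and for the 14 member probes and the related genes also read from the deposited table they run opposite to it. The value of the table by its own labels stands beside each member, and for those related genes it is given with the processing alternatives, while list counts and medians are by the scanner labels alone. Hspb1 and Hspa1a, heat shock genes known to be induced by heat, were read as a check of the labels. Their log2 fold changes were -0.48 (adjusted p = 0.028) and -0.85 (adjusted p = 0.070) by the scanner labels. By the labels of the table they were 0.34 (adjusted p = 0.077) and 0.98 (adjusted p = 0.046). By the scanner labels, Hspb1 lost its call in 4 of the fits with 1 array left out, and Hspa1a gained a call in 1. Of 7 heat shock genes tested, 5 were lower by the scanner labels, none was higher and 2 were not called, with a median of -0.64. Among all named genes tested, 36.1% were called higher and 37.4% lower.

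Slide and group could not be separated either. Each group lay on 1 slide of its own, with 450 days between the scans of the slides, and effects of slide, scan and stress cannot be told apart. The 75th percentile of processed signals was 414.4 to 430.1 on the control arrays and 1456 to 1566 on the S3d arrays.

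S3d replicate 1 stood apart from the other arrays by genes of the pancreas. The summed signal of the 9 tested pancreas genes was 1582 times that array's 75th percentile, against 1.32 to 1.76 on the control arrays and 2.10 and 3.43 on S3d replicates 2 and 3. Ins1, an insulin gene, had a log2 level of 0.47 on S3d replicate 1 and of -2.06 and -1.90 on the other S3d arrays. The summed signal of stomach genes was 48.0 on the same array, against 3.97 to 6.47 on the other 5. Islets of the pancreas also make somatostatin, glucagon, ghrelin and peptide YY. Of the 9 pancreas genes, 6 had no overlap between groups, so S3d replicates 2 and 3 were also above the control arrays for these. Member probes are therefore given with and without S3d replicate 1, which does not remove all of that signal. Without it the dimmer probes were at -0.16 for Gcg, 0.23 for Chga and 0.20 for Tph1. Related genes and lists are given with it, apart from counts and ranges with each array left out. Beyond that, the part of pancreas and stomach genes in the results was not tested.

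**Figure D1:**
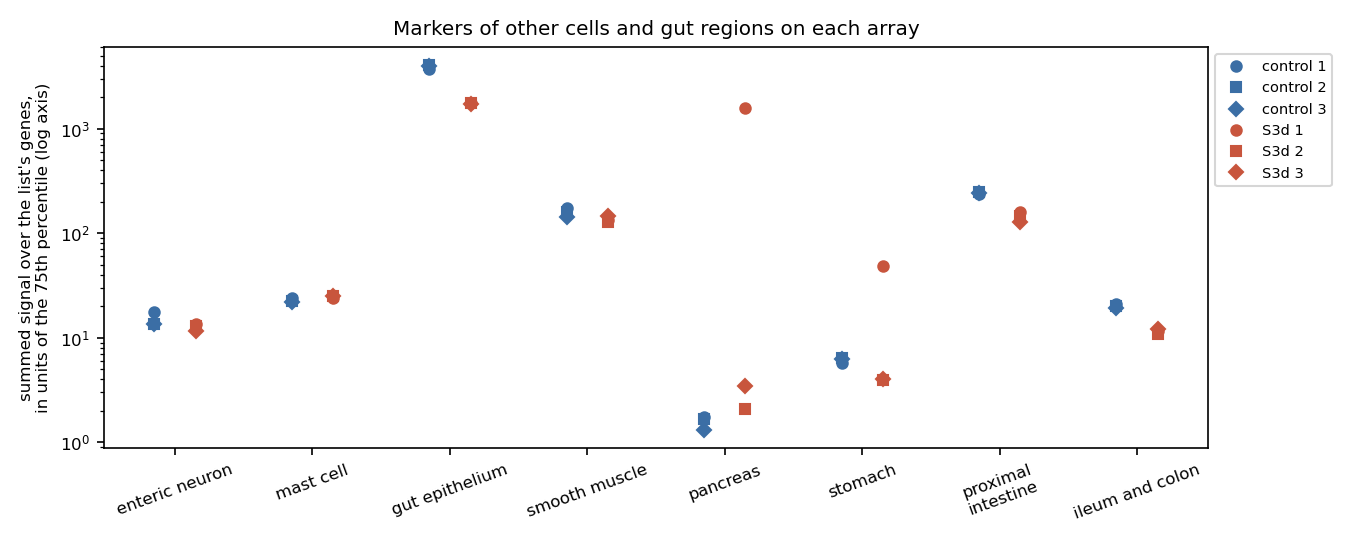
Summed signal of marker genes of other cells and gut regions on each array (vertical log axis, in units of the array's 75th percentile; blue, control; red, S3d; symbols give the replicate). The pancreas sum of S3d replicate 1, at 1582, lies far above the 1.32 to 3.43 of the other 5 arrays, and the epithelial sum is 3714 to 4041 on control arrays and 1710 to 1748 on S3d arrays.

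The level of a probe is its log2 processed signal minus the log2 of the 75th percentile of the same array, and levels are compared only within a probe. A probe was called at an adjusted p under 0.05 in limma, fitted on the 31424 probes above background in at least 1 group and adjusted over all of them by the Benjamini-Hochberg method. Of all probes tested, 73.9% were called, 39.4% as higher and 34.5% as lower on the S3d arrays. Of the 14 hormone and granule probes, 11 were called, a share near that background, with 3 higher and 8 lower. Without S3d replicate 1, 11 were again called, 3 higher and 8 lower, with Pyy now called and Tph1 no longer called, where the background was 72.6%, 38.6% and 34%. Groups did not overlap for 11 of the 14 probes, 3 higher and 8 lower, against 78.9% of all probes tested, 42.3% and 36.6% by direction. With a fold change of at least 1.5 required as well, 8 of the 14 were called, 1 higher and 7 lower, where the background was 52.5%, 29.2% and 23.2%. The median log2 fold change of all probes tested was 0.09, and it moved to 0.01 with quantile normalization and to -0.10 with each array centred on its median. With normexp background correction before the 75th percentile, chosen after seeing the data, 5.53% of all probes and 1 of the 14, the dimmer Nts probe, were called, and the log2 fold change of Cck was -1.94 (adjusted p = 0.053).

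**Figure D2:**
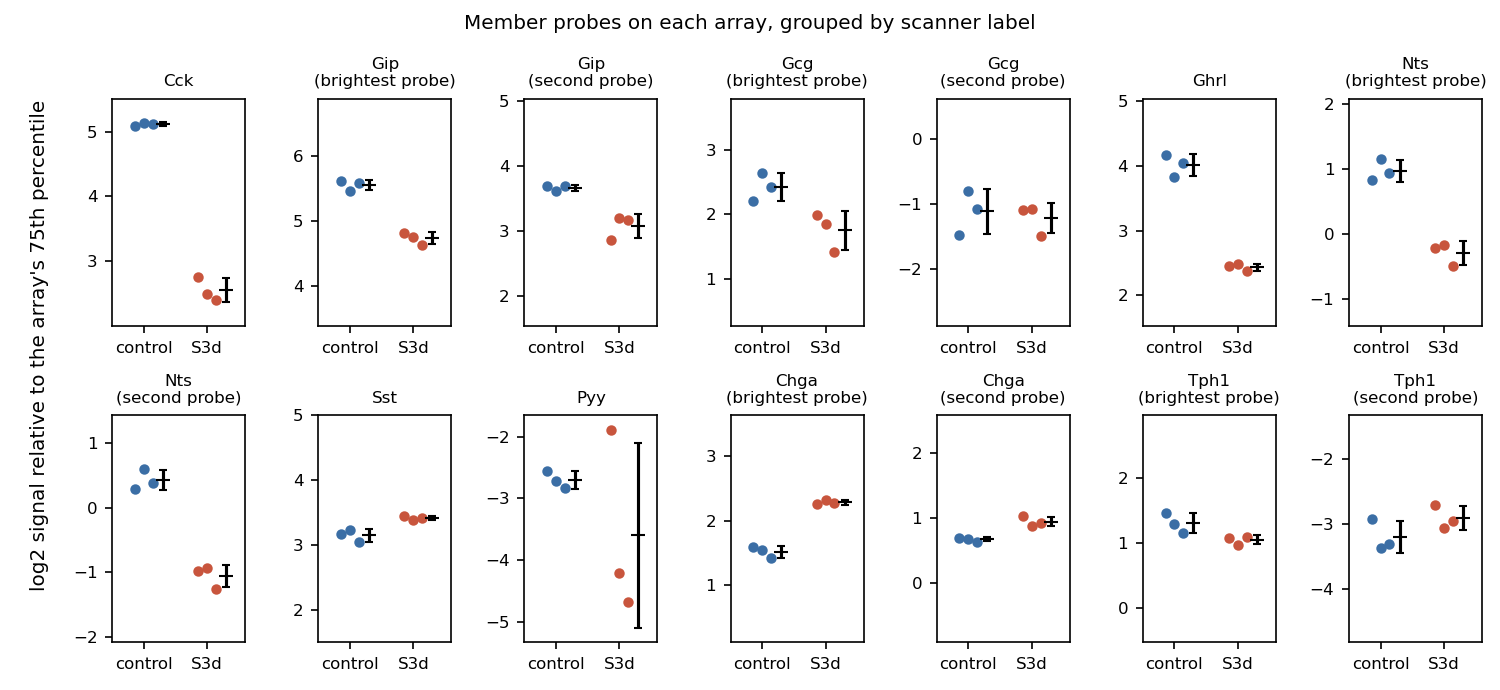
Levels of the 14 probes on each array (log2 signal relative to the array's 75th percentile; points are arrays, crosses with bars the mean ± SD of 3 arrays). Cck, both Gip probes, Ghrl and both Nts probes are lower on every S3d array than on any control array, Sst and both Chga probes are higher, and Pyy is spread widely on the S3d arrays.

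Reference promoters of 7 of these genes were matched in RefSeq (rat assembly GRCr8), those of Gip, Gcg, Ghrl, Nts, Sst, Pyy and Tph1. Each window runs from 250 bases before the annotated transcription start to 50 bases after it. Ghrl and Nts are shown as genes with lower signal on the S3d arrays on every probe, and Sst as one with higher signal. Capitals mark the E-box, CANNTG, the letters that NEUROD1 and other basic helix-loop-helix factors are known to bind, and the cyclic AMP response element, TGACGTCA.
Ghrl, chr4:148425175-148425474, minus strand: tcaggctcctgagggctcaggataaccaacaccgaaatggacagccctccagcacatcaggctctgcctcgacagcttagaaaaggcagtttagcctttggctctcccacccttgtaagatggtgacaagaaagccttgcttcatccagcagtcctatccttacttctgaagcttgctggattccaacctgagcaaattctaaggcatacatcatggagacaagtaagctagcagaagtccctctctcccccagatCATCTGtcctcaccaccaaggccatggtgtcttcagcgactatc
Nts, chr7:39460839-39461138, minus strand: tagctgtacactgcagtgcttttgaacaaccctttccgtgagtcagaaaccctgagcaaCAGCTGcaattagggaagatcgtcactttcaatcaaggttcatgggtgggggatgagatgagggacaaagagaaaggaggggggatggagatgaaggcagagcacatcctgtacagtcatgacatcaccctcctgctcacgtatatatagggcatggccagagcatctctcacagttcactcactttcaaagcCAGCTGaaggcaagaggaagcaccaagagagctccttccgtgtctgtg
Sst, chr11:90461296-90461595, plus strand: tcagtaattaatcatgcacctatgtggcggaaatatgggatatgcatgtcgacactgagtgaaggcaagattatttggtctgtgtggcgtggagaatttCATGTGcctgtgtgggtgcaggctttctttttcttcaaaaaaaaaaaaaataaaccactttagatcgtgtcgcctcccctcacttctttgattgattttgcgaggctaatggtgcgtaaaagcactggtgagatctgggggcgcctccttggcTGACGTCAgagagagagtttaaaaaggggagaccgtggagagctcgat

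The E-box letters were found in all 7 promoters, once each in Ghrl and Sst and at 2 places in Nts, and in 72.1% of the 33469 rat promoters in the table. The cyclic AMP response element was found in Sst alone among the 7, starting 3 bases into the annotated transcript, and in 1.83% of all promoters. Gcg held the TATA box letters TATAAA at 2 places, and 14.2% of promoters held these letters at any number of places. Tph1 held CCAAT, as did 37.5%, and GGGCGG, as did 33.1%. Both strands were searched, and the marked motifs did not overlap. A match shows only that the letters lie in the window.

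Cck encodes cholecystokinin, which drives gallbladder contraction, pancreatic secretion and satiety. Its level was 5.09, 5.14 and 5.12 on control arrays 1 to 3 and 2.76, 2.50 and 2.40 on S3d arrays 1 to 3. The groups lay far apart, and the control arrays differed among themselves by less than the S3d arrays did. This gave a log2 fold change of -2.56 (SE 0.103, 95% confidence interval -2.82 to -2.31, adjusted p = 1.5e-05), a 5.91-fold higher signal on the control arrays. Of all probes tested, 0.869% had a more negative fold change. Without S3d replicate 1 the log2 fold change was -2.66, and in the deposited table by its own labels it was 2.24.

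Cck was also the only member probe whose processed signal was lower on the S3d arrays before any scaling. It was 14072, 15037 and 14969 on the control arrays and 9834, 8793 and 8257 on the S3d arrays, although the 75th percentile of the S3d arrays was the higher one. The other 13 probes had a higher mean processed signal on the S3d arrays. For Sst, both Chga probes and the dimmer Tph1 probe the mean had the same sign before and after scaling. For the other 9 the sign of the difference rests on the scaling between arrays.

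Ghrl encodes ghrelin, a hormone of hunger and growth hormone release made mainly in the stomach and less in the upper intestine. Its level was 4.17, 3.83 and 4.04 on the control arrays and 2.45, 2.48 and 2.37 on the S3d arrays, without overlap. The log2 fold change was -1.58 (SE 0.102, adjusted p = 4.6e-05), a 2.99-fold higher signal on the control arrays. It was -1.59 without S3d replicate 1 and 1.30 in the deposited table by its own labels. Before scaling, its processed signal was 6064 to 7467 on the control arrays and 7949 to 8649 on the S3d arrays.

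The repeated spots of Cck, Ghrl and Sst give the error within an array. The SD over the 10 spots was 0.032 to 0.070 for each of these genes on each array. Every Cck spot on a control array, at 5.03 or more, was above every Cck spot on an S3d array, at 2.85 or less. Ghrl spots were likewise separate, at 3.75 or more on control arrays and 2.55 or less on S3d arrays. Sst spots reached 3.30 on control replicate 2 and fell to 3.30 on S3d replicate 2, so that the ranges of the groups nearly met.

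**Figure D3:**
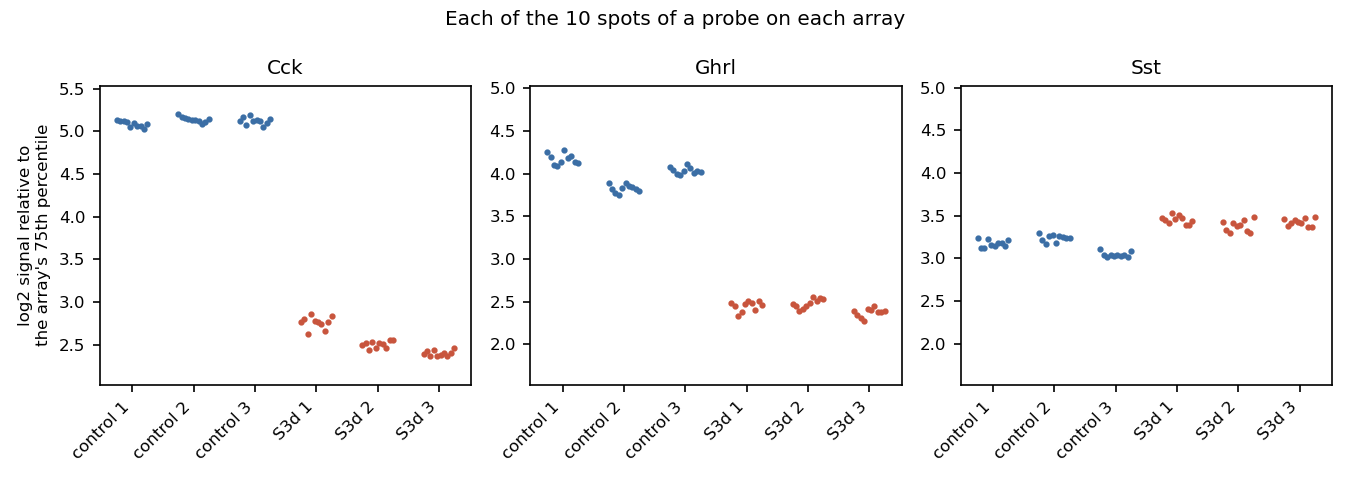
Each of the 10 spots of the Cck, Ghrl and Sst probes on each array (vertical axis, log2 signal relative to the array's 75th percentile, the same span in each panel; blue, control; red, S3d). Spots of an array lie close together, with an SD of 0.032 to 0.070, and the gap between groups is wide for Cck and Ghrl and narrow for Sst.

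Gip encodes the incretin of K cells in the upper small intestine, which raises insulin release after a meal. Its brighter probe had levels of 5.61, 5.46 and 5.58 on the control arrays and 4.81, 4.75 and 4.63 on the S3d arrays. All S3d values lay below all control values. Its log2 fold change was -0.81 (SE 0.0791, adjusted p = 0.00021), -0.86 without S3d replicate 1, and 0.31 in the deposited table. With quantile normalization it shrank to -0.32 (adjusted p = 0.0095).

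The other Gip probe had levels of 3.69, 3.61 and 3.69 on the control arrays and 2.85, 3.19 and 3.16 on the S3d arrays. Its log2 fold change was -0.60 (SE 0.106, adjusted p = 0.0028) and -0.49 without S3d replicate 1. Quantile normalization took it to -0.28 (adjusted p = 0.084), which ended the call, and the deposited table gave 0.30 (adjusted p = 0.074). Both Gip probes thus had the same sign under each scaling, at different sizes.

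Nts encodes neurotensin, which slows gut motility and aids fat uptake. Its brighter probe had levels of 0.83, 1.16 and 0.94 on the control arrays and -0.21, -0.16 and -0.50 on the S3d arrays. The other probe had levels of 0.29, 0.59 and 0.38 on the control arrays and -0.98, -0.93 and -1.25 on the S3d arrays. The arrays kept the same order on both probes, with control replicate 2 the highest and S3d replicate 3 the lowest. The log2 fold changes were -1.27 (SE 0.129, adjusted p = 0.00026) and -1.48 (SE 0.123, adjusted p = 0.00012). Without S3d replicate 1 they were -1.31 and -1.51, and in the deposited table they were 1.26 and 1.49.

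Gcg encodes proglucagon, from which L cells cut GLP-1 and GLP-2. Its brighter probe had levels of 2.20, 2.64 and 2.43 on the control arrays and 2.00, 1.85 and 1.42 on the S3d arrays, with little space between the groups. The log2 fold change was -0.67 (SE 0.185, adjusted p = 0.017) and -0.79 without S3d replicate 1. The call was lost without control replicate 2, at -0.56 (adjusted p = 0.054), and in the one-way analysis of variance (adjusted p = 0.052). The other Gcg probe had levels of -1.48, -0.80 and -1.08 on the control arrays and -1.10, -1.07 and -1.49 on the S3d arrays, and the groups overlapped. There the log2 fold change was -0.10 (95% confidence interval -0.60 to 0.40, adjusted p = 0.66). The deposited table gave 0.53 and 0.16 for the 2 probes. Averaged over both probes, Gcg was at -0.39 (adjusted p = 0.11).

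Pyy encodes peptide YY, the ileal brake hormone of L cells. Its level was -2.56, -2.71 and -2.83 on the control arrays and -1.90, -4.21 and -4.68 on the S3d arrays. S3d replicate 1 was thus the highest of all 6 arrays, while the other S3d arrays were the lowest. The log2 fold change was -0.90 (SE 0.711, 95% confidence interval -2.64 to 0.85, adjusted p = 0.29) and was not called. Without S3d replicate 1 it was -1.75 (95% confidence interval -2.18 to -1.31, adjusted p = 0.00061). In the deposited table by its own labels it was 1.17 (adjusted p = 0.22). The array that carried the high Pyy value is the one with the pancreas genes. On it Ppy, which encodes the related pancreatic polypeptide of islet cells, had a level of -0.80, against -5.65 and -5.71 on the other S3d arrays and -6.39 to -6.01 on the control arrays, where it was not well above background.

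Markers of gut regions and of the epithelium were read beside these hormones. Of 4 tested genes of the ileum and colon, 3 were lower on the S3d arrays (Fabp6, Slc10a2 and Slc51a) and none was higher. Fabp6, an ileal bile acid binding protein, had a log2 fold change of -2.70 (SE 0.253, adjusted p = 0.00018). The summed signal of that list was 19.2 to 20.8 on the control arrays and 10.9 to 12.1 on the S3d arrays. Of 7 genes of the proximal small intestine, 2 were higher, 3 lower and 2 not called, and their sum was 234.6 to 246.5 and 127.9 to 161.0. Of 12 genes of the gut epithelium, 9 were lower and 2 higher, with a median of -0.45, and Epcam was not called. The part of region and of epithelial content in the hormone values was not tested.

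Sst encodes somatostatin, which restrains the release of most other gut hormones. Its level was 3.17, 3.24 and 3.05 on the control arrays and 3.45, 3.38 and 3.42 on the S3d arrays. All S3d values were the higher ones, by a small margin. This was a log2 fold change of 0.27 (SE 0.0731, adjusted p = 0.017), or 1.20-fold, and 0.25 (adjusted p = 0.044) without S3d replicate 1. The size depended on the scaling, with 0.57 (adjusted p = 0.00046) after quantile normalization and 0.08 (adjusted p = 0.35) after median centring, which ended the call. The deposited table gave -0.55.

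Chga, the granin, was the other member with higher signal on the S3d arrays. Its brighter probe had levels of 1.59, 1.54 and 1.42 on the control arrays and 2.25, 2.32 and 2.26 on the S3d arrays. The log2 fold change was 0.76 (SE 0.0705, adjusted p = 0.00017), or 1.70-fold, 0.78 without S3d replicate 1 and -0.89 in the deposited table. The other probe had levels of 0.70, 0.68 and 0.64 on the control arrays and 1.03, 0.88 and 0.93 on the S3d arrays. Its log2 fold change was smaller, at 0.27 (SE 0.0664, adjusted p = 0.010), and fell to 0.09 (adjusted p = 0.29) after median centring, which ended the call. The granule marker and the hormones Cck, Gip, Ghrl and Nts thus had opposite signs. That held with quantile normalization and median centring, while the deposited table by its own labels reversed all of them together.

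Somatostatin and chromogranin A are also made by neurons, and the markers of enteric neurons were read beside them. Of 10 tested neuronal genes, 4 were higher on the S3d arrays (Elavl3, Elavl4, Tubb3 and Snap25), none was lower and 6 were not called, with a median of 0.03. The summed neuronal signal was 13.6 to 17.8 on the control arrays and 11.6 to 13.7 on the S3d arrays. Nos1 and Chat, which define the main classes of enteric neurons, did not pass the filter on dim probes. Their part in the values of Sst and Chga was not tested.

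Tph1 encodes the tryptophan hydroxylase of enterochromaffin cells. Its brighter probe had levels of 1.47, 1.30 and 1.16 on the control arrays and 1.09, 0.97 and 1.09 on the S3d arrays, nearly touching. This gave a log2 fold change of -0.26 (SE 0.0967, adjusted p = 0.0497), just past the threshold, and -0.28 (adjusted p = 0.077) without S3d replicate 1. The call was also lost with quantile normalization, without the filter on dim probes, with outlier spots kept and in the one-way analysis of variance. The other probe had levels of -2.92, -3.38 and -3.31 on the control arrays and -2.70, -3.06 and -2.96 on the S3d arrays, with overlap. It was at 0.30 (95% confidence interval -0.08 to 0.68, adjusted p = 0.13). The probes thus differed in sign, and their mean was at 0.02. The deposited table gave 0.22 and -0.08. Of 9 tested mast cell genes, another source of Tph1, 3 were higher (Cpa3, Tpsb2 and Ms4a2), 1 lower (Kit) and 5 not called. Their summed signal was 22.0 to 24.1 on the control arrays and 24.1 to 25.1 on the S3d arrays.

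**Figure D4:**
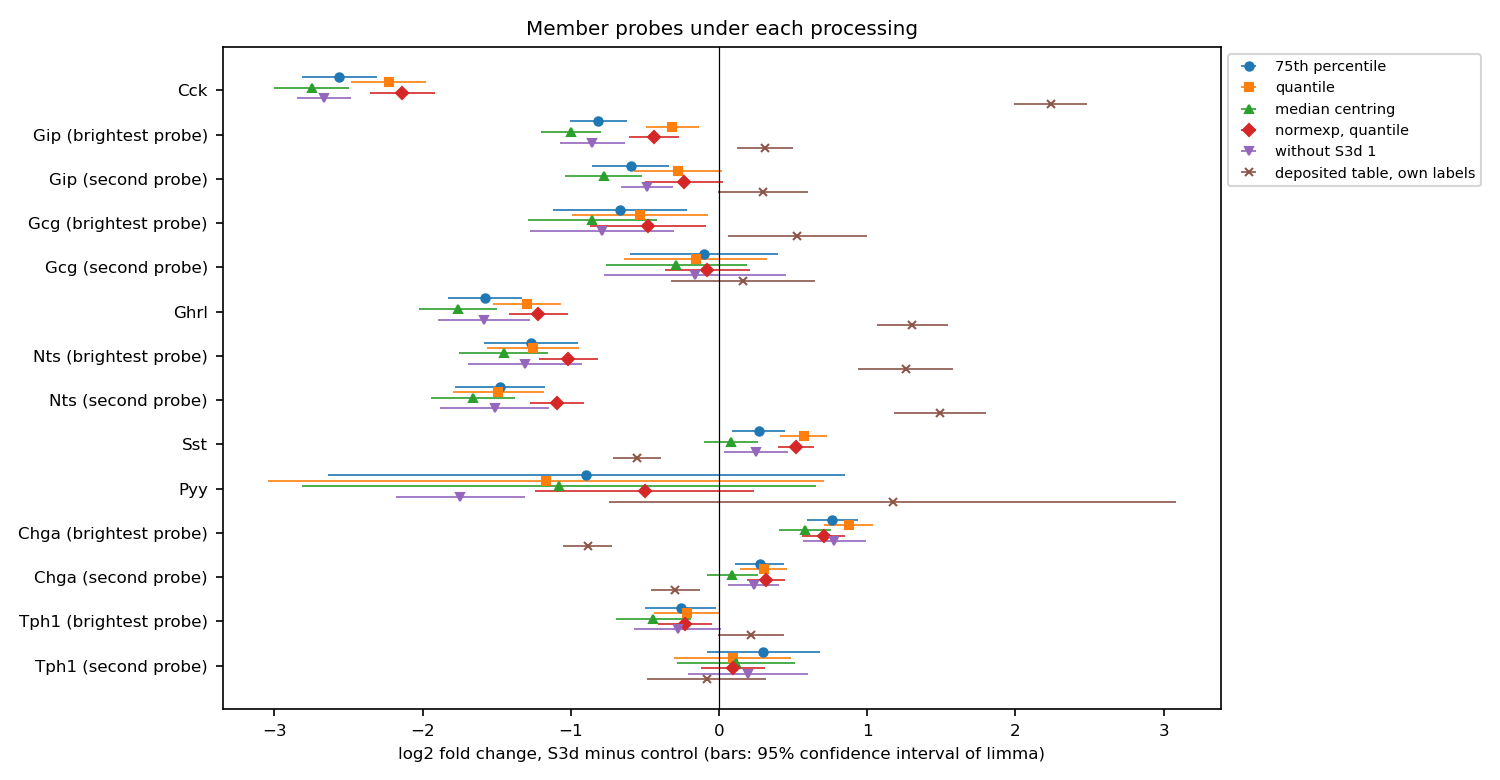
Log2 fold change of each of the 14 probes (horizontal axis; bars, 95% confidence interval of limma) with the 75th percentile, quantile normalization, median centring, normexp, without S3d replicate 1, and in the deposited table by its own labels. Cck runs from -2.75 to -2.14 under the first 5 and is 2.24 in the table. The Pyy interval excludes 0 only without S3d replicate 1. In normexp, the background fit of control replicate 3 differed from that of the other arrays.

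The genes that work with these hormones were counted in 8 lists, with the brightest probe of each gene. Of 128 genes listed, 99 were tested, of which 32 were higher, 35 lower and 32 not called, with a median log2 fold change of 0.05. Among the brightest probes of all 11506 named genes tested, 73.4% were called, 36.1% as higher and 37.4% as lower, with a median of 0.00. Normexp with quantile normalization kept the sign and call of each called gene among the related genes read from the deposited table, but moved the fold of some by over 1.5 times, to a log2 fold change of -0.57 for Guca2a, -0.98 for Neurod1, 0.53 for Myt1, 1.58 for Maob, 0.28 for Ffar3 and 0.69 for Sstr2, and to -1.68 for Fabp6 above. The background fit of that setting left control replicate 3 with a 10th percentile of 971, against 60.6 to 72.4 on the other arrays. Past 1.5-fold that setting called 27.4% of all probes, against 52.5% in the main fit. The median of the 9 hormone and granule genes on their brightest probes was that of Gip, at -0.81, in the main fit. With quantile normalization it was that of Gcg, at -0.53.

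**Figure D5:**
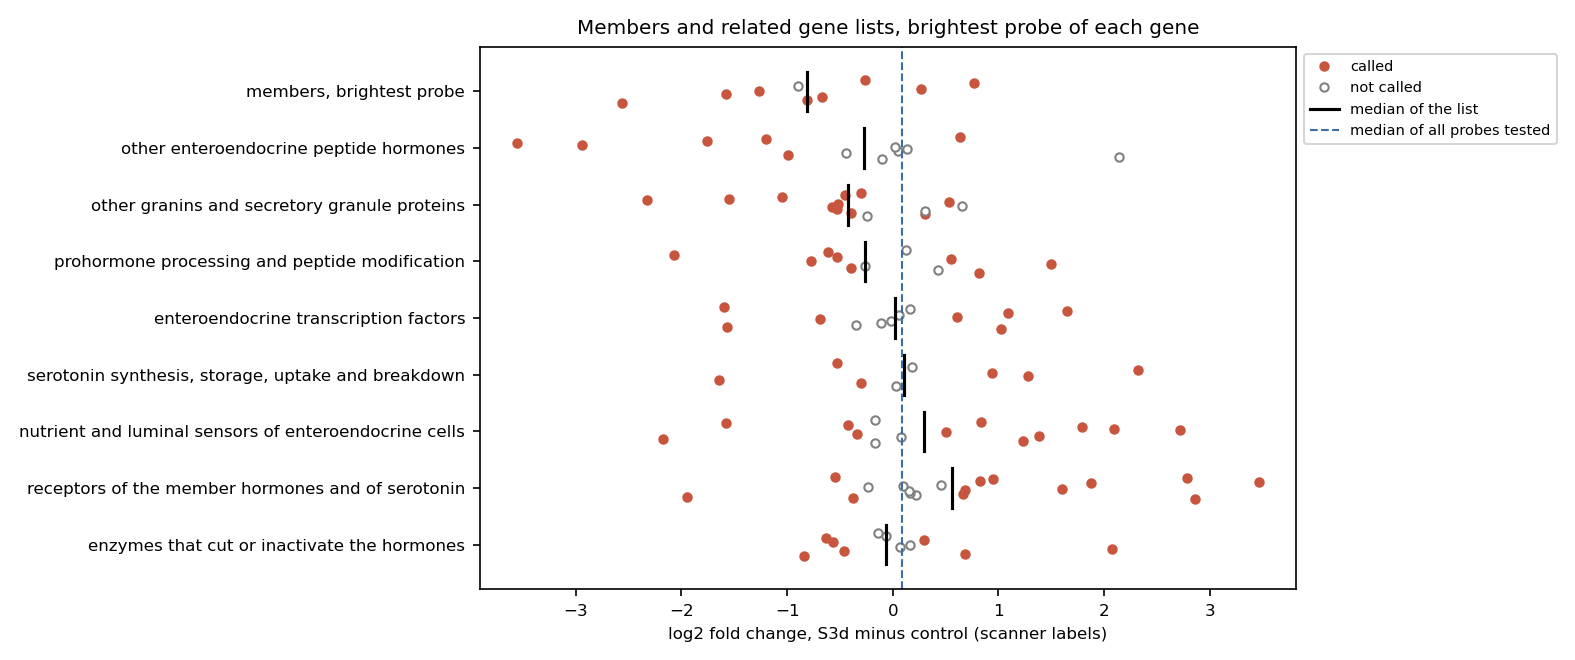
Log2 fold change on the brightest probe (horizontal axis, S3d minus control by scanner labels) of the 9 member genes and of 8 lists of related genes; filled points were called, open points were not, black bars are list medians, and the dashed line is the median of all probes tested, 0.09. List medians run from -0.42 for granule proteins to 0.56 for receptors, and each list holds genes on both sides of 0.

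Other peptide hormones of the gut had 1 gene higher, 5 lower and 6 not called among 12 tested, with a median of -0.27. The lower genes were Npw, Adm, Guca2a, Guca2b and Tac1. Npw, which encodes neuropeptide W, had levels of 3.14, 3.02 and 2.82 on the control arrays and -0.66, -0.97 and -0.07 on the S3d arrays. Its log2 fold change was -3.56 (SE 0.238, adjusted p = 5.2e-05), an 11.8-fold higher signal on the control arrays. Guca2a, the gene of guanylin, which regulates salt and water secretion, was at -1.76 (SE 0.136, adjusted p = 8.6e-05), and at -0.75 with quantile normalization. Cort, the gene of cortistatin, a relative of somatostatin, was the higher one, at 0.63 (SE 0.0976, adjusted p = 0.0015), and thus had the same sign as Sst.

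Granule proteins other than Chga had 2 genes higher, 9 lower and 3 not called among 14, with a median of -0.42. Scg2 and Snap25 were the higher ones. Snap25, a protein of vesicle fusion, was at 0.53 (SE 0.116, adjusted p = 0.0068). Rab3b, a small GTPase of secretory vesicles, was at -1.55 (SE 0.0778, adjusted p = 2.2e-05), with both of its probes of the same sign. Chgb, the sister granin of Chga, was among the genes not called. The 9 lower granule genes thus had the sign of Cck and Ghrl, and not that of Chga.

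Enzymes that turn prohormones into hormones went both ways, with 3 higher, 5 lower and 3 not called among 11 and a median of -0.27. Cpe, the carboxypeptidase that trims the cut peptides, was at 1.5 (SE 0.0832, adjusted p = 2.9e-05). Pcsk1, the convertase that cuts proglucagon to GLP-1, was at 0.82 (SE 0.076, adjusted p = 0.00018), and its other probe had the opposite sign. Furin, a convertase of the secretory pathway of all cells, was at -2.07 (SE 0.0897, adjusted p = 1.6e-05). Mboat4, which adds the acyl group that ghrelin needs for its activity, was at -0.53 (SE 0.0923, adjusted p = 0.0026), with the same sign as Ghrl.

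Transcription factors of enteroendocrine cells had 4 genes higher (Neurog3, Etv1 and Myt1 among them), 3 lower (Neurod1, Isl1 and Hnf4a) and 5 not called among 12, with a median of 0.02. Neurog3, which starts the enteroendocrine fate in crypt progenitors, had levels of -3.35, -3.26 and -3.52 on the control arrays and -1.90, -2.45 and -2.71 on the S3d arrays. Its log2 fold change was 1.02 (SE 0.213, adjusted p = 0.0055). Neurod1, which acts after it, had levels of -1.38, -1.56 and -1.37 on the control arrays and -2.93, -3.00 and -3.08 on the S3d arrays, with a log2 fold change of -1.57 (SE 0.0825, adjusted p = 2.5e-05). The early and the later factor thus had opposite signs, and neither showed overlap between groups. Myt1, a partner of Neurog3, was at 1.65 (SE 0.335, adjusted p = 0.0049). Leaving out each array in turn gave 0.79 to 1.20 for Neurog3 and 1.41 to 2.01 for Myt1. Hnf4a, which is expressed throughout the gut epithelium, was at -1.59 (SE 0.063, adjusted p = 1.4e-05).

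Genes of serotonin handling beside Tph1 had 3 higher (Slc6a4, Maoa and Maob), 3 lower (Slc18a1, Slc18a2 and Aldh2) and 2 not called among 8, with a median of 0.10. Slc6a4, the transporter that takes serotonin up into cells, was at 1.28 (SE 0.0996, adjusted p = 8.8e-05). Maob, which breaks amines down, was at 2.32 (SE 0.236, adjusted p = 0.00025). Slc18a2, which loads amines into vesicles and is known from mast cells and neurons, was at -1.65 (SE 0.0803, adjusted p = 2.1e-05), but its other probe had the opposite sign. On these probes the serotonin transporter and both monoamine oxidases were thus higher on the S3d arrays, and both vesicle transporters lower.

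Sensors of nutrients and other luminal signals had 7 higher, 4 lower and 3 not called among 14, with a median of 0.29. Trpa1, counted as higher, was well above background on no control array and passed the filter only through the S3d arrays. Ffar4, a receptor of long-chain fatty acids on Cck, Gip and Gcg cells, was at -2.17 (SE 0.0886, adjusted p = 1.5e-05). Ffar3, a receptor of short-chain fatty acids, was at 1.23 (SE 0.0757, adjusted p = 4.0e-05). The lower genes were Ffar4, Gpr35 and the nutrient transporters Slc15a1 and Slc5a1.

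Receptors of the hormones had 9 higher, 3 lower and 6 not called among 18, with a median of 0.56, and 6 others did not pass the filter, among them those of GIP and GLP-1. Sstr2, a somatostatin receptor, was at 1.60 (SE 0.182, adjusted p = 0.00041). Htr7, a serotonin receptor, was at -0.55 (SE 0.0798, adjusted p = 0.0012). Cckbr, Npy4r and Htr3b, counted as higher, were well above background on S3d arrays alone, and Glp2r, counted as lower, on control arrays alone. These passed the filter only through the brighter group, and the counts and median include them. Enzymes that cut or inactivate the hormones had 3 higher, 4 lower and 4 not called among 11, with a median of -0.06. Dpp4, which inactivates GIP and GLP-1, was at -0.85 (SE 0.0908, adjusted p = 0.00032).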

How the data were processed

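Jejunal RNA of 3 control and 3 S3d samples was hybridised to 1-colour Agilent arrays. The authors deposited 1 scanner file per array (Agilent Feature Extraction 10.7.3.1), whose processed signal is an intensity after background subtraction with no normalization across arrays, and a table of log2 values with an equal median (6.65) in every column, normalized by a program not given in the sources used here. Control spots and outlier spots were left out and repeated spots averaged. Each array's log2 processed signal was scaled to its 75th percentile. A probe was tested where every array of a group, or of both, had it well above background, and 9588 of 41012 were left out. The comparison used limma 3.58.1 (R 4.3.3), without a block, and Benjamini-Hochberg adjustment. The study's methods name a one-way analysis of variance without tying it to the arrays, and it was run per probe as an alternative. On simulated data of 31137 probes with 200 changed, limma recovered 62% with 4 false calls. Those data held independent noise and no slide or scan effect, so they cannot give the false calls among these arrays. Figures were drawn with matplotlib 3.10.9 in Python 3.11.15.

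The members and lists were chosen with earlier results of these data known. All members were named, with every probe; of each list of related genes, the called gene with the highest and that with the lowest fold change, on its brightest probe, measured above background on every array and without overlap; and Hspb1 and Hspa1a. A gene that this rule would name is not reported here. Other genes were named where a count was 5 or fewer, and Neurod1, Neurog3, Pcsk1, Mboat4, Slc6a4, Guca2a, Fabp6, Ins1 and Ppy were given values after their results were seen. Probes were named through RefSeq accessions and the RefSeq table of GRCr8. Marker lists covered enteric neurons, mast cells, gut epithelium, smooth muscle, pancreas, stomach, proximal small intestine, ileum and colon, and heat shock genes. Nothing in the labels says more of the replicates than the pooling of 3 rats, the study's text gives fewer rats per group than the labels, and p-values measure the spread between these arrays. The number of arrays limits the precision. Normexp used the median spot signal, since the files hold no mean signal.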

Additional observations from a re-analysis of the deposited data

How the results depend on the processing

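Every value below is a log2 fold change or a number of calls. Quantile normalization, median centring, normexp with quantile normalization, no filter or a stricter one on dim probes, keeping outlier spots, an intensity trend and the analysis of variance kept the sign of every member probe, and gave 9 to 11 member calls against 11. Leaving out each array in turn gave 9 to 11 member calls (3 to 4 higher, 6 to 8 lower), 63 to 66 list calls against 67 and 21449 to 22817 calls over all probes against 23224. Gcg on its dimmer probe turned to 0.056 without control replicate 2 and 0.03 without S3d replicate 3. Pyy was called without S3d replicate 1 alone. Tph1 on its brighter probe kept its call without control replicate 3 and lost it without each of the other 5 arrays, its mean over both probes was 0.02, and its dimmer probe was called without control replicate 1. Median centring left 1 higher member call, and a fold change of at least 1.5 left 1. Deviations of the same replicate number correlated at 0.020, 0.022 and -0.049, and not every array correlated best with its own number. These values do not settle whether the samples were paired. With the replicate number as a block, 11 member probes, 64 list genes and 22093 of 31137 probes were called. The dimmer Tph1 probe was then called in place of the brighter one.

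The deposited table by its own labels gave 9 member calls, 6 higher and 3 lower. It differs from the main values in its normalization and in its group labels, which are exchanged against the scanner files, and quantile normalization of the scanner values gave 9 calls, 3 higher and 6 lower. It gave Cck 2.24, Gip 0.31 and 0.30, Gcg 0.53 and 0.16, Ghrl 1.30, Nts 1.26 and 1.49, Sst -0.55, Pyy 1.17, Chga -0.89 and -0.29, and Tph1 0.22 and -0.084. Related genes with a value above 0 there were Npw 3.45, Guca2a 0.75, Rab3b 1.60, Mboat4 0.69, Furin 2.00, Neurod1 1.72, Hnf4a 1.59, Slc18a2 1.71, Ffar4 2.08, Htr7 1.04, Dpp4 0.46, Fabp6 2.84, Hspb1 0.34 and Hspa1a 0.98. Those below 0 were Cort -0.35, Snap25 -0.41, Pcsk1 -0.72, Cpe -1.61, Neurog3 -0.82, Myt1 -1.28, Slc6a4 -1.32, Maob -2.26, Ffar3 -0.82, Sstr2 -1.31, Ins1 -1.37 and Ppy -1.48.

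Normexp followed by the 75th percentile was added after the data were seen. It made 1737 calls over all probes, 12 in the lists and 1 member call (0 higher, 1 lower), that of the dimmer Nts probe at -1.27. The brightest probes were at -1.94 for Cck, -0.30 for Gip, -0.19 for Gcg, -0.98 for Ghrl, -0.97 for Nts, 0.74 for Sst and 0.97 for Chga, none called. It turned Tph1 on its dimmer probe to -0.98, Cort to -0.93, Snap25 to -0.28, Pcsk1 to -0.14, Neurog3 to -0.50, Myt1 to -1.02, Ffar3 to -1.24, Sstr2 to -0.49 and Ppy to -0.89. Its background fit, shared by normexp with quantile normalization, left the 10th percentile of control replicate 3 at 971, against 60.6 to 72.4 on the other 5 arrays. The slide could not be used as a block, since each slide held 1 group.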

Other observations

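Markers of smooth muscle, the muscle coat of the gut wall, had 2 genes higher (Myh11 and Smtn), 4 lower (Des, Tagln, Myl9 and Lmod1) and 2 not called among 8 tested, with a median log2 fold change of -0.52 and a summed signal of 143.8 to 173.0 on the control arrays and 126.5 to 146.5 on the S3d arrays. Of 7 stomach genes, 2 were higher (Atp4a and Atp4b), 1 lower (Pgc) and 4 not called, with a median of 0.11. Atp4a was well above background on no control array and passed the filter only through the S3d arrays. The 9 tested pancreas genes, with a median of 3.69, were not called with all 6 arrays. Of 7 heat shock genes, 5 were lower on the arrays labelled S3d, none was higher and 2 were not called, with a median of -0.64.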
